A study of Homo sapiens with 2 samples.

Results

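VIP, PENK and 8 other genes of neuropeptide signaling were followed between unedited SK-N-AS neuroblastoma cells and a clone of the same line edited in STRAP. The 10 genes comprised the peptide precursors VIP, ADCYAP1, PENK, NPY, GAL, SST and TAC1 and the receptors VIPR1, VIPR2 and AVPR1A, each taken as the row holding its symbol among the 62573 rows of the expression table. They had been selected with their levels in these same libraries known, so the differences between the libraries are given as a description and carry no test. RNA levels were available for 1 sample of AS WT, the parental SK-N-AS culture, and 1 sample of AS STRAP KO, each treated as 1 library. SK-N-AS is a human neuroblastoma line without amplification of MYCN. AS STRAP KO cells had received the pX458 plasmid, which carries Cas9, a STRAP guide RNA and GFP, and after sorting for GFP they were expanded from a single cell. Both cultures were left untreated and were grown in DMEM with fetal bovine serum, so they differ in the STRAP edit and also in that 1 clone is set against a parental culture, and these cannot be told apart. STRAP itself, a scaffold protein of serine-threonine kinase receptor signaling, had 244 FPKM in AS WT against 179 FPKM in AS STRAP KO (log2 ratio -0.45), a level over the whole transcript that does not measure the edit. For AS STRAP KO the paper reports a sequence gap at the guide position and no detectable STRAP protein on immunoblots.

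Neuropeptides are cut from larger precursor proteins in the secretory pathway, stored in dense-core vesicles and released to act on G protein-coupled receptors. VIP and PACAP, the product of ADCYAP1, share the receptors VIPR1 and VIPR2, which act through the stimulatory G protein to raise cyclic AMP. VIP, PENK and SST are textbook target genes of cyclic AMP and its transcription factor CREB. VIP is known from the more differentiated tumors of the neuroblastoma family, some of which secrete it and cause watery diarrhea.

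The VIP and PACAP peptides are alike, which is shown here by the coding sequences of the mature peptides because both act on the receptors described below. The stretches come from the GENCODE 44 transcripts and run 5′ to 3′, with capitals for the bases that the genes share. VIP is encoded by codons 125 to 152 of 170 and the 27-residue form of PACAP by codons 132 to 158 of 176.
VIP peptide: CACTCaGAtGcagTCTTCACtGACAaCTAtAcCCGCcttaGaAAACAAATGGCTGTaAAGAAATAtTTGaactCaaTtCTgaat
ADCYAP1 peptide: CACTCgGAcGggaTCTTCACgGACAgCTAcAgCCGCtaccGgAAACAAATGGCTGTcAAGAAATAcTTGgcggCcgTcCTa
Of the 81 aligned bases, 57 (70.4%) were identical, as were 19 of the 27 encoded residues.

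The start regions of the genes with the sharpest differences between the libraries are given from RefSeq on GRCh38.p14, from 250 bases before the start of the transcript to 50 after it. Such a region was examined for 8 of the 10 genes. Capitals mark matches to 4 motifs that were searched on both strands unless stated, namely the cyclic AMP response element TGACGTCA, its TGACG core, the AP-1 site TGANTCA, and the TATA box TATAAA on the plus strand only. The TGACG core lies within the full element, so a full element is also counted as a core.
VIP, chr6:152750547-152750846, plus strand: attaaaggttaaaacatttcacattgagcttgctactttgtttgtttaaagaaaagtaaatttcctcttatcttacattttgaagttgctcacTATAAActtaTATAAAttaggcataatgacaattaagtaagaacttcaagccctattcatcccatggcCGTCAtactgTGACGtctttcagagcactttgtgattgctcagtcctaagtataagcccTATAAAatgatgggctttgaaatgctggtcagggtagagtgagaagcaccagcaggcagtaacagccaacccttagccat
NPY, chr7:24283940-24284239, plus strand: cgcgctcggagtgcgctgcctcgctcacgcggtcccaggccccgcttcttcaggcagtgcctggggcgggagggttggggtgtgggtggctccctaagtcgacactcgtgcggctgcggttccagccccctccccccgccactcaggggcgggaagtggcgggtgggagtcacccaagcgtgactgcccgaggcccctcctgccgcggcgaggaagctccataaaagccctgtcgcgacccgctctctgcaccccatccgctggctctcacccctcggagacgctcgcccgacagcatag
VIPR2, chr7:159144818-159145117, minus strand: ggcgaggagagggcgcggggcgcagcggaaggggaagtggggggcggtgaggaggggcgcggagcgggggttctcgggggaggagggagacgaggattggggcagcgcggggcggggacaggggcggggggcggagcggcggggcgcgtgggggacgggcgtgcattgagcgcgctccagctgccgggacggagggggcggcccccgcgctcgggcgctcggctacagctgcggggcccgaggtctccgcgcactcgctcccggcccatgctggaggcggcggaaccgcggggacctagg
AVPR1A, chr12:63151152-63151451, minus strand: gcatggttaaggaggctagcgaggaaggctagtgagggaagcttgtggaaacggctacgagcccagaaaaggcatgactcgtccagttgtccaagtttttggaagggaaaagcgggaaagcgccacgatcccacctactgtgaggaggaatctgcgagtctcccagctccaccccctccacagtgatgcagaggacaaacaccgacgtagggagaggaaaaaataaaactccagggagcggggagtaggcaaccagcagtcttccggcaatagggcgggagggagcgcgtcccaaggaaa
The VIP region held the TGACG core at 79 bases before the start and its reverse complement CGTCA at 89, next to a TATAAA at 30 bases before the start. Further TATAAA matches lay at 157 and 147 bases. None of the 4 motifs was found in these windows of NPY, VIPR2 and AVPR1A. Among the other genes examined, the full element was found in SST, 47 bases before the start. The core was found in TAC1 and in 1 of the 2 regions each of ADCYAP1 and VIPR1. Of all 35114 regions of this length, 1.85% held the full element, 24.6% its core, 7.71% the AP-1 site and 7.33% TATAAA. The regions also differed in CpG content, with 2 CpG in VIP, 15 in AVPR1A, 29 in NPY and 42 in the VIPR2 region shown, beside a median of 14 (quartiles 4 and 28) over all regions. VIPR2 has a second region in the table, with 12 CpG and none of the motifs. These matches describe the letters in the windows and were not measured as bound or methylated sites.

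Levels are in FPKM, in which reads are divided by the length of the transcript and the depth of the library, so that levels can be compared between genes. A difference is the plain log2 ratio of AS STRAP KO over AS WT. With 1 library per group there is no replicate check on any difference. The depth could be read from the steps between low values, which placed 1 FPKM at 26.3 reads per kilobase in AS WT and 26.7 in AS STRAP KO, so that VIP at 59.0 FPKM stood for about 2140 reads. The 95% intervals given with the values come from these estimated reads (exact Poisson for a level, exact Clopper-Pearson for a ratio) and cover counting error only. They take all reads of a gene as coming from its main transcript and would be wider if a shorter one was expressed. For PENK in AS WT, the estimate would be about 40876 reads with the shortest transcript. An exact 0 in this table is reported as listed at 0, without a fold, because RPS18, a ribosomal protein gene with 7 rows, and PRKACA, a protein kinase A subunit that cells use broadly, were at 0 in both libraries throughout. Counts of genes beyond 2-fold include a 0 in 1 library by convention, and each listed 0 of a named gene is then pointed out, since it may be a failed estimate. In bulk RNA, fewer cells with a transcript and less of it per cell cannot be told apart.

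The labelled cell type was checked against a list of 10 sympathoadrenal genes. The transcription factors of this lineage HAND2 (227 and 228 FPKM in AS WT and AS STRAP KO) and GATA3 (35.5 and 28.2 FPKM) were present in both libraries. The catecholamine enzymes TH and DDC and the vesicle protein CHGA were listed at 0 in both, and DBH was under 0.1 FPKM. PHOX2A had 50.05 and 12.01 FPKM, and ISL1 2.69 and 0.734 FPKM. GATA2 went the other way within 2-fold (20.5 and 38.5 FPKM, log2 ratio 0.91). Thus 2 of the 5 listed genes of at least 1 FPKM were lower by 2-fold or more in AS STRAP KO and none was higher by 2-fold or more. The summed level was 336 and 308 FPKM, most of it from HAND2. A list of 12 genes of the mesenchymal neuroblastoma state had 1 gene lower, SNAI2 (22.002 and 8.41 FPKM), and 1 higher, PRRX1 (3.14 and 11.5 FPKM), of 11. By any amount, 8 of these 11 were higher in AS STRAP KO and 3 lower, with a median log2 ratio of 0.52. The sums were 2286 and 2396 FPKM, with VIM, which was lower in AS STRAP KO (1368 and 896 FPKM), as the largest part of each. The part of these markers in the differences of the peptide genes described next was not tested.

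Most of the peptide and receptor genes had lower values in AS STRAP KO. Of the 10 genes, 7 reached 1 FPKM in at least 1 library, and 6 of these were counted as lower by 2-fold or more. VIP, PENK, GAL and AVPR1A had a measured ratio past that limit, while NPY and VIPR2 were counted only through a listed 0 in AS STRAP KO. None was at least 2-fold higher. Across the 13527 rows of the table that passed the same limit, 10.6% were lower by 2-fold or more and 8.31% were higher by 2-fold or more, with a median log2 ratio of 0.00. Since these genes had been selected on this contrast, nothing is read from their count against that background. The sum over the 7 precursors was 6815 FPKM in AS WT against 2252 FPKM in AS STRAP KO, of which PENK made up 95.6% and 97.5%. Without PENK the sums were 299 and 57.3 FPKM (log2 ratio -2.39).

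**Figure D1:**
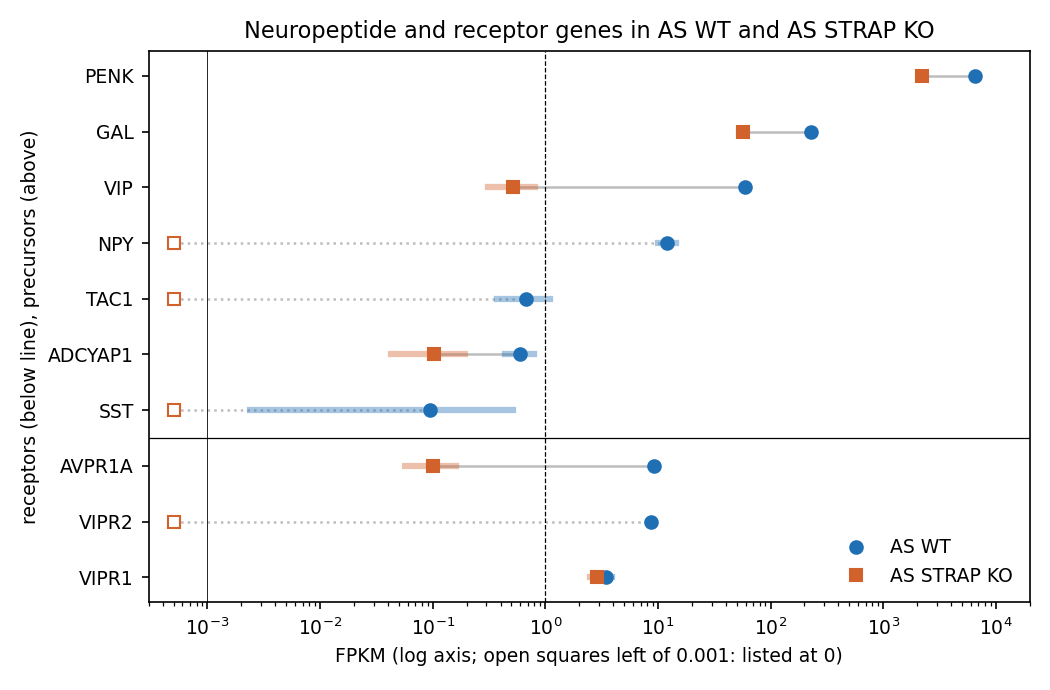
FPKM of the 10 genes on a log axis in AS WT (circles) and AS STRAP KO (squares), 1 library each, with shaded 95% counting intervals and a dashed line at 1 FPKM. Open squares at the left stand for NPY, TAC1, SST and VIPR2, which were listed at 0 in AS STRAP KO, and the symbols overlap only for VIPR1.

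VIP encodes vasoactive intestinal peptide. The gene occupies positions 152750797 to 152759765 of chromosome 6 (GRCh38, plus strand), and GENCODE 44 gives its main transcript 7 exons and 1580 bases. The gene had 59.0 FPKM in AS WT (56.6 to 61.6) and 0.514 FPKM in AS STRAP KO (0.311 to 0.806). The latter stood for about 18.9 reads. The level was thus 115-fold lower in AS STRAP KO, with a counting interval of 73.0 to 190 (log2 ratio -6.84, interval -7.57 to -6.19). Of the rows that passed 1 FPKM and were above 0 in both libraries, VIP had the 10th lowest ratio, and 2.17% of all rows that passed were at least 10-fold lower or listed at 0 in AS STRAP KO.

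ADCYAP1 encodes PACAP, the closest relative of VIP, and lies on chromosome 18 from 904871 to 912172. It was low in both libraries, with 0.599 FPKM in AS WT (0.441 to 0.792) and 0.103 FPKM in AS STRAP KO (0.0424 to 0.193). The log2 ratio was -2.54, the same direction as VIP, with a fold of 5.805 and a wide counting interval of 2.86 to 14.9. At most 8.65 reads carried the value of AS STRAP KO, and only 1.00 if the shortest transcript was the one expressed. ADCYAP1 did not reach 1 FPKM and was not among the genes counted above.

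PENK encodes proenkephalin, the precursor of the opioid peptides Met- and Leu-enkephalin. It lies on the minus strand of chromosome 8 from 56436674 to 56446671. Its level of 6515 FPKM in AS WT was the 3rd highest of the whole table, and with 2195 FPKM in AS STRAP KO it still ranked 14th. The fold was 2.97 lower with a counting interval of 2.94 to 2.996 (log2 ratio -1.57), the narrowest of the 10 genes because about 179924 and 61535 reads stood behind it. PENK was therefore both the most abundant of these transcripts in each library and the 1 with the smallest fold among the 4 whose measured ratio was past 2-fold.

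GAL encodes galanin, a peptide of sympathetic and enteric neurons, on the plus strand of chromosome 11 from 68683779 to 68691175. It had 227 FPKM in AS WT (219 to 235) and 56.7 FPKM in AS STRAP KO (52.9 to 60.7). This was 4.00-fold lower in AS STRAP KO (3.71 to 4.32, log2 ratio -2.00), and GAL kept the second place after PENK in both libraries.

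NPY encodes neuropeptide Y, a cotransmitter of sympathetic neurons, and lies on the plus strand of chromosome 7 from 24284188 to 24291862. Its level was 12.1 FPKM in AS WT (9.97 to 14.5), about 113 reads, and the gene was listed at 0 in AS STRAP KO. TAC1, the precursor of substance P and neurokinin A on chromosome 7 from 97732084 to 97740472, had 0.678 FPKM in AS WT (0.371 to 1.09), about 15.3 reads, but was also listed at 0 in AS STRAP KO. SST, the precursor of somatostatin on chromosome 3 from 187668912 to 187670394, had 0.0940 FPKM in AS WT, about 1 read, but was listed at 0 in AS STRAP KO. A level of SST that differed between the libraries was therefore not detectable at this depth.

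The 3 receptor genes differed from each other in how they compared between the libraries. VIPR1, which encodes the receptor VPAC1, lies on chromosome 3 from 42489299 to 42537573 and had 3.45 FPKM in AS WT (3.03 to 3.93) and 2.88 FPKM in AS STRAP KO (2.49 to 3.31). The log2 ratio of -0.26 had a counting interval of -0.55 to 0.02, so a difference was not detectable at this depth. VIPR2, which encodes VPAC2 and lies on the minus strand of chromosome 7 from 159028175 to 159144867, had 8.71 FPKM in AS WT (8.12 to 9.31), about 835 reads, but was listed at 0 in AS STRAP KO. The VIP receptor with the higher level in AS WT was thus the 1 listed at 0 in AS STRAP KO, while the other was measured in both. ADCYAP1R1, the receptor that prefers PACAP, was listed at 0 in both libraries.

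AVPR1A encodes the V1a receptor for vasopressin, which couples to Gq and calcium rather than to cyclic AMP, and lies on the minus strand of chromosome 12 from 63142759 to 63151201. It had 9.20 FPKM in AS WT (8.74 to 9.69) and 0.1004 FPKM in AS STRAP KO (0.0570 to 0.162). The level was 91.6-fold lower in AS STRAP KO, with a counting interval of 56.7 to 162 (log2 ratio -6.52), and the ratio was the 17th lowest among the rows of at least 1 FPKM that were above 0 in both libraries. About 16.1 reads carried the value of AS STRAP KO for the main transcript, and 1.32 for the shortest. The vasopressin precursor gene AVP was listed at 0 in both libraries, so no RNA of the ligand was measured.

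In AS WT the order of the 10 genes from high to low was PENK, GAL, VIP, NPY, AVPR1A, VIPR2, VIPR1, TAC1, ADCYAP1 and SST. The counting intervals of AVPR1A and VIPR2 overlapped, and so did those of TAC1, ADCYAP1 and SST, so these neighbours could not be ordered. In AS STRAP KO the order was PENK, GAL, VIPR1, VIP, ADCYAP1 and AVPR1A, with the intervals of the last pair overlapping and the other 4 genes listed at 0. VIPR1 thus lay below VIP in AS WT and above it in AS STRAP KO.

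**Figure D2:**
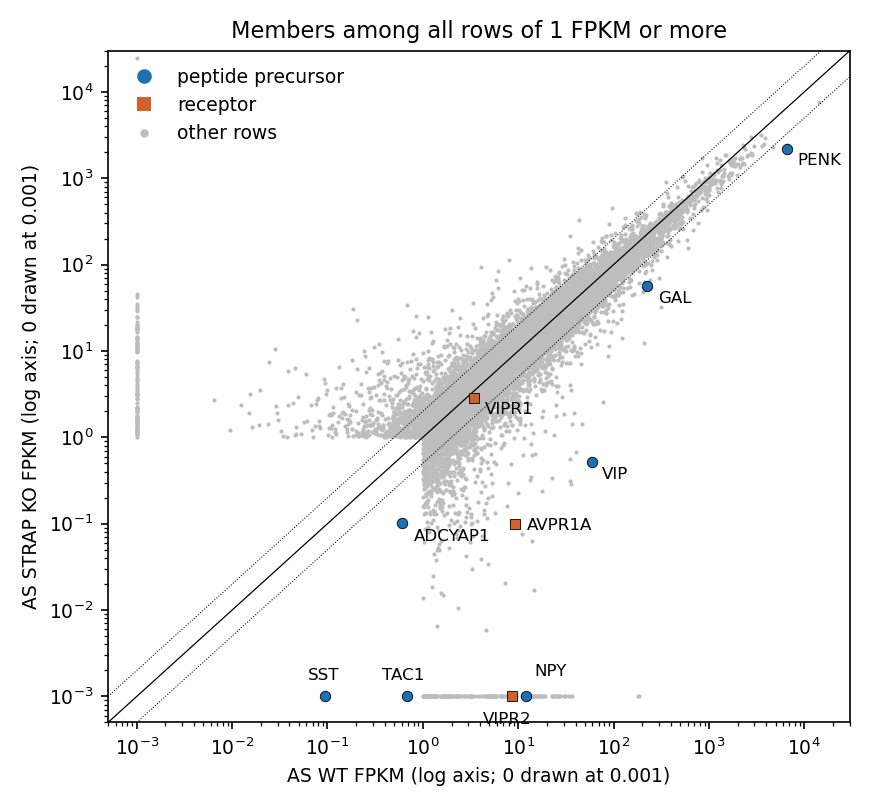
FPKM in AS STRAP KO against FPKM in AS WT on log axes for every row with at least 1 FPKM in 1 library (gray), with a 0 drawn at 0.001 and lines at equal level and at 2-fold. The precursors (circles) and receptors (squares) lie below the line of equal level, and VIP and AVPR1A lie below nearly all gray points of their AS WT level that are above 0.

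Genes with 5 FPKM or more in AS WT and a listed 0 in AS STRAP KO included others of peptide signaling beside NPY and VIPR2. They were QRFPR, the receptor for the peptide QRFP (15.1 FPKM in AS WT), and PPY, the precursor of pancreatic polypeptide (5.23 FPKM). In the other direction INSM1, a neuroendocrine transcription factor, reached 18.5 FPKM in AS STRAP KO against a listed 0 in AS WT. QRFPR and INSM1 are named here after their values were seen. No test was made of how many genes with such a 0 belong to peptide signaling.

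The receptors for all 7 peptides and for vasopressin and oxytocin formed a list of 26 genes, and most were near silent. A level of 1 FPKM or more in either library was reached by 5 genes, with AVPR1A lower by 2-fold or more in AS STRAP KO, VIPR2 counted with it through its listed 0, NPY1R at least 2-fold higher, and VIPR1 and SSTR2 neither (median log2 ratio -0.48). AVPR1A, VIPR2 and VIPR1 are among the genes selected on this contrast, so nothing is read from these counts. The other 21 stayed under 1 FPKM in both libraries, and 9 of them were listed at 0 in both. NPY1R, the Y1 receptor for neuropeptide Y, had 0.0467 FPKM in AS WT against 1.08 FPKM in AS STRAP KO (log2 ratio 4.53). SSTR2, a somatostatin receptor, shares a row with COG1 (66.9 and 48.0 FPKM), and its own part of that level is not known.

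Receptors that could respond to the abundant PENK and GAL transcripts' peptides were low in both libraries. Among the 4 opioid receptor genes the highest was OPRD1, the delta receptor, with 0.727 FPKM in AS WT against 0.665 FPKM in AS STRAP KO. OPRM1, the mu receptor, was at 0.00264 FPKM in AS WT and listed at 0 in AS STRAP KO. The galanin receptor genes GALR2 (0.130 and 0.288 FPKM) and GALR3 (0.201 and 0.277 FPKM) were also under 1 FPKM. RAMP1, a partner protein that forms the receptor for calcitonin gene-related peptide with CALCRL, had 234 FPKM in AS WT against 141 FPKM in AS STRAP KO (log2 ratio -0.73). In a list of 4 genes, the RAMP genes and CALCRL, it was the only 1 above 1 FPKM. CALCRL was listed at 0 in both libraries.

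Precursors of other peptides went in both directions, with the largest folds among the lower ones. Of 58 listed, 20 passed 1 FPKM, with 6 lower by 2-fold or more in AS STRAP KO, 3 at least 2-fold higher and 11 neither, around a median log2 ratio of 0.01. Over all rows that passed, 10.6% were lower and 8.31% higher by 2-fold or more. Among the 11, CORT, NPFF and UCN2 were counted through rows shared with other genes, and their own levels are not known. The largest measured fold was 104 among the lower genes (EDN3) and 2.77 among the higher ones (ADM2). CRH, the precursor of corticotropin-releasing hormone, was the most abundant of those that were lower in a row of their own and had 210 FPKM in AS WT against 12.5 FPKM in AS STRAP KO (16.9-fold, log2 ratio -4.08). EDN3, the precursor of endothelin 3, had 4.08 and 0.0393 FPKM (log2 ratio -6.70), CALCB, a calcitonin gene-related peptide gene, 3.81 and 0.178 FPKM (log2 ratio -4.42), and PPY 5.23 FPKM and a listed 0. The others that were lower were NMU (1.70 and 0.405 FPKM) and the row shared by NPB and ANAPC11 (265 and 128 FPKM). Higher in AS STRAP KO were ADM2 (1.53 and 4.23 FPKM), AGRP (0.745 and 1.998 FPKM) and PTHLH, the gene of parathyroid hormone-related protein (7.98 and 18.9 FPKM). NMU, NPB, ADM2, AGRP, PTHLH, CORT, NPFF and UCN2 were named after their values were seen.

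The enzymes that cut and finish peptides were mostly within 2-fold. Of 15 genes, 9 passed 1 FPKM, with 2 lower by 2-fold or more, 1 higher by 2-fold or more and 6 neither (median log2 ratio -0.20). The shares over all rows that passed were 10.6% lower and 8.31% higher. PCSK1, the prohormone convertase of the regulated secretory pathway, had 0.255 FPKM in AS WT against 1.10 FPKM in AS STRAP KO (log2 ratio 2.11). PCSK2, the other main neuroendocrine convertase, was listed at 0 in both. PAM, which amidates the ends of peptides such as VIP and NPY, had 252 and 137 FPKM (log2 ratio -0.88), PCSK4, a convertase known from germ cells, 9.90 and 4.13 FPKM (log2 ratio -1.26), and QPCTL, a glutaminyl cyclase, 21.4 and 10.1 FPKM (log2 ratio -1.08).

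Of the granins, cargo proteins of dense-core vesicles, SCG2 was higher in AS STRAP KO (362 and 669 FPKM, log2 ratio 0.89) and VGF lower (204 and 113 FPKM, log2 ratio -0.85), both within 2-fold. CHGA and CHGB did not reach 1 FPKM in either library, and neither did the fifth granin listed. Among 13 enzymes that degrade peptides, 2 of the 11 that passed were at least 2-fold lower and none was at least 2-fold higher (median log2 ratio -0.11). The shares over all rows that passed were 10.6% lower and 8.31% higher. MME encodes neprilysin, which cleaves enkephalins and substance P, and had 88.5 FPKM in AS WT against 8.84 FPKM in AS STRAP KO (10.0-fold, log2 ratio -3.32). LNPEP, an aminopeptidase that cleaves oxytocin and vasopressin, had 6.49 and 3.15 FPKM (log2 ratio -1.04).

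The cyclic AMP pathway downstream of the VIP receptors was described from 43 genes. Of the 33 that passed, 4 were lower by 2-fold or more in AS STRAP KO, 1 was at least 2-fold higher and 28 were neither, with a median log2 ratio of 0.00 that equaled that of all rows. Among all rows that passed, 10.6% were lower and 8.31% higher by 2-fold or more. GNAS, the stimulatory G protein subunit, had 882 and 794 FPKM, ADCY3, an adenylyl cyclase, 93.0 and 88.6 FPKM, and CREB1 6.90 and 7.94 FPKM. The 4 that were lower were PKIB, an inhibitor of protein kinase A (18.9 and 1.2003 FPKM, log2 ratio -3.98), the cyclic nucleotide phosphodiesterases PDE3B (1.44 and 0.245 FPKM) and PDE4B (3.0001 and 0.540 FPKM), and RAPGEF4, the cyclic AMP sensor EPAC2 (5.25 and 2.09 FPKM, named after its value was seen). The 1 that was higher was CREBBP, the coactivator of CREB (9.61 and 26.1 FPKM, log2 ratio 1.44).

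Other target genes of CREB were described from a list of 18. Of the 14 that passed, CRH was lower by 2-fold or more in AS STRAP KO, NR4A3, a nuclear receptor of the immediate early genes, was at least 2-fold higher (0.549 and 1.28 FPKM, log2 ratio 1.22), and 12 were neither. The median log2 ratio was 0.15, and over all rows that passed 10.6% were lower and 8.31% higher by 2-fold or more. AREG, an EGF family ligand, had 18.0 and 34.6 FPKM (log2 ratio 0.94), and DUSP1, a MAP kinase phosphatase, 31.1 and 20.1 FPKM (log2 ratio -0.63). RNA levels do not measure cyclic AMP or the phosphorylation of CREB.

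**Figure D3:**
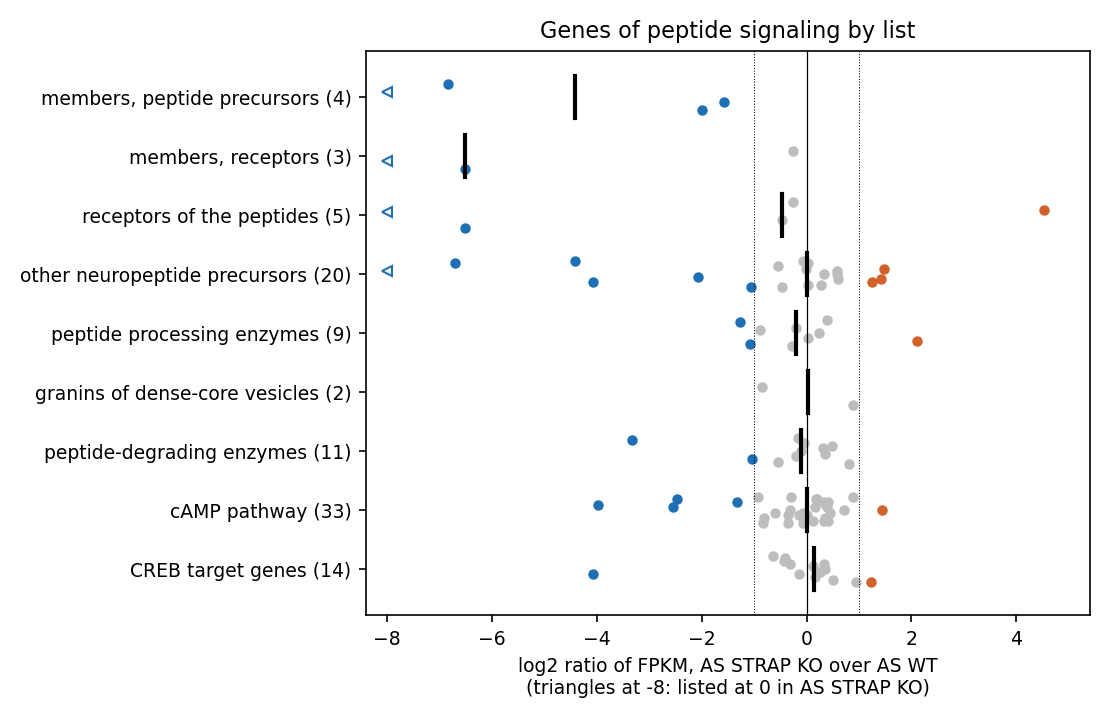
Log2 ratio of FPKM, AS STRAP KO over AS WT, for each gene of at least 1 FPKM in 1 library by list, with the number of rows in parentheses, a black bar at each median, dotted lines at 2-fold and triangles for genes listed at 0 in AS STRAP KO. The cyclic AMP pathway and the CREB target genes center near 0, and the members, shown in the upper rows, were selected on this ratio.

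The neighbours of the 10 genes on their chromosomes were compared to see how far the differences extended along the genome. The 3 nearest protein-coding genes of at least 1 FPKM on each side gave 57 genes, since none followed VIPR2. Of these, 3 were lower by 2-fold or more in AS STRAP KO, 4 were at least 2-fold higher, and 50 lay between log2 ratios of -0.94 and 0.84 (median of all 57, -0.04). Over all rows that passed, 10.6% were lower and 8.31% higher by the same limit. Those rows are not limited to protein-coding genes, so the sets are unlike and nothing is read from the counts. The 3 lower neighbours were each the nearest counted gene on 1 side of VIP, GAL or AVPR1A. Whether the differences of these genes were regional was not tested. Next to VIP, MYCT1 lay 26.2 kb away and had 1.49 FPKM in AS WT against 0.0828 FPKM in AS STRAP KO (log2 ratio -4.17), while FBXO5, on the other side at 211 kb, had 26.8 and 30.0 FPKM. Next to GAL, TESMIN at 16.3 kb had 9.17 and 1.98 FPKM (log2 ratio -2.22), and next to AVPR1A, DPY19L2 at 408 kb had 1.44 and 0.181 FPKM (log2 ratio -2.99). On the other side of GAL and AVPR1A the nearest genes, PPP6R3 and PPM1H, had log2 ratios of 0.04 and -0.57.

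The neighbours of NPY, ADCYAP1 and VIPR1 were all within 2-fold. Higher in AS STRAP KO were LYN near PENK (2.95 and 9.81 FPKM, log2 ratio 1.73), EIF4A2 near SST (845 and 1738 FPKM, log2 ratio 1.04), BHLHA15 near TAC1 (0.256 and 1.11 FPKM, log2 ratio 2.12) and PTPRN2, a protein of dense-core vesicles, near VIPR2 (0.367 and 1.92 FPKM, log2 ratio 2.39). RPS20, a ribosomal protein gene near PENK, had 659 and 645 FPKM, and ESYT2, the nearest before VIPR2, 12.8 and 14.6 FPKM.

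**Figure D4:**
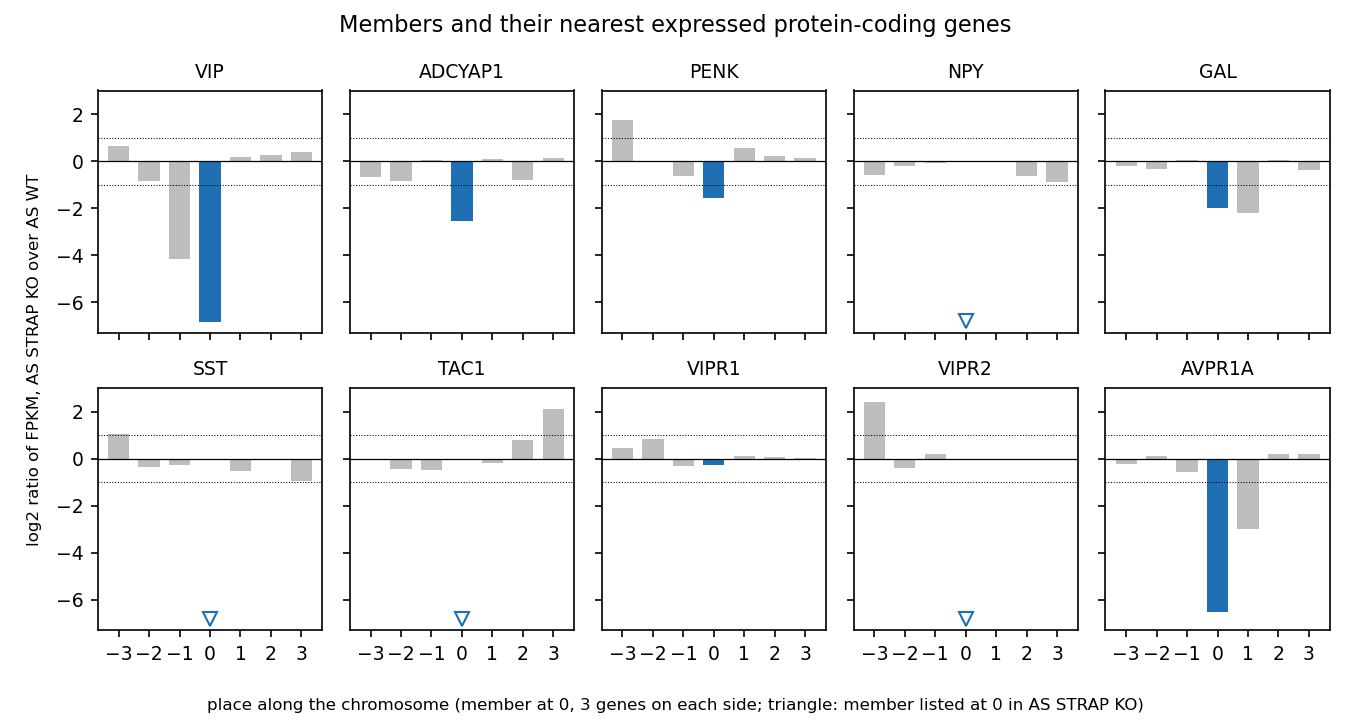
Log2 ratio of FPKM, AS STRAP KO over AS WT, for each of the 10 genes (blue, place 0) and up to 3 expressed protein-coding genes on each side (gray), with dotted lines at 2-fold and triangles where the gene itself was listed at 0 in AS STRAP KO. Gray bars beyond the lower line appear next to VIP, GAL and AVPR1A only.

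The rows most like VIP, PENK and AVPR1A in both libraries were sought among 12275 rows with 1 symbol, by the distance between log2 FPKM values. Over 2 libraries this likeness is weak and describes levels only. Nearest to VIP were TMEM176A (40.2 and 0.669 FPKM, distance 0.67), TMEM176B (35.4 and 0.287 FPKM, 1.12) and VEGFD, a growth factor of lymphatic vessels (22.8 and 0.341 FPKM, 1.49). Nearest to PENK were the nuclear noncoding RNA MALAT1 (6650 and 2429 FPKM, distance 0.15), the ribosomal protein gene RPL5 (3794 and 2500 FPKM, 0.80) and RACK1, a ribosome-bound scaffold (3899 and 2954 FPKM, 0.86). Nearest to AVPR1A were FAP, a serine protease of activated fibroblasts (9.22 and 0.0956 FPKM, distance 0.07), EPB41L3, a membrane skeleton protein (8.31 and 0.107 FPKM, 0.17), and PALMD (7.61 and 0.159 FPKM, 0.72).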

How the data were processed

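Poly A selected RNA of both cultures was sequenced as single-end 75 bp reads after a strand-specific library preparation. The authors aligned reads with STAR (2.7.3a in the methods, 2.7.6 in the submitters' processing notes) to GRCh38 with GENCODE 32 and estimated levels with Cufflinks 2.2.1, set to a first-strand library. The authors deposited 1 column of FPKM per condition, scaled by Cufflinks to transcript length and to the mapped reads of the library. The paper states that all its experiments had biologic replicates, but whether replicates were pooled into a column is not stated in the methods or labels. Each column was therefore treated as 1 library. Rows that hold several symbols cannot be divided between their genes. A listed gene in such a row was counted with the level of the whole row. Cuffdiff p-values were not used. Results of some genes are not reported here, and marker counts leave them out.

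The gene column was split at commas, and for a repeated symbol the row of highest summed FPKM was taken. Rows that reached 1 FPKM in either library were counted as lower or higher at 2-fold, with a 0 in 1 library counted as beyond it. The authors used the same fold but also required significance, so their gene counts are not comparable with these. No test across libraries was possible. Reads were estimated from 2180 genes with a single transcript of at least 1500 bases and a fragment length of 200, where 94.8% (AS WT) and 93.8% (AS STRAP KO) of 368 and 320 values between 1 and 5 reads lay within 0.1 of a whole number. This step was tested on simulated data. The FPKM sums were 710811 and 659999, with 22317 and 21401 rows above 0. The 10 genes and the gene lists were chosen with earlier results of these data known. Genes named were the 10, their receptors of at least 1 FPKM, up to 4 genes per list with the largest ratios, neighbours beyond 2-fold, and the 3 nearest rows in level for VIP, PENK and AVPR1A, with others marked in the text or given as reference values of a list. Coordinates came from GENCODE 44 on GRCh38 and start regions from RefSeq. No start region was examined for PENK and GAL, so nothing is said about their motifs. Alternatives were added pseudocounts, other filters on low values, TPM, upper-quartile, median and trimmed-mean scaling, and summed rows per symbol. Biopython 1.88, SciPy 1.17.1, pandas 2.3.3, numpy 2.4.6, matplotlib 3.10.9 and Python 3.11.15 were used.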

Additional observations from a re-analysis of the deposited data

How the results depend on the processing

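For the genes above 0 in both libraries, 41 of 48 alternative log2 ratios stayed within the counting interval. No sign changed, but an added constant cannot change one, and the scalings moved all log2 ratios by 0.11 at most. Settings on shared or repeated rows left each value as it was, because each gene had 1 row of its own. VIP ranged from -6.86 to -5.31, AVPR1A from -6.54 to -3.21, GAL from -2.02 to -1.89, PENK from -1.59 to -1.46, ADCYAP1 from -2.55 to -0.54 and VIPR1 from -0.28 to -0.16, with the smallest sizes where 1 FPKM was added (VIP, AVPR1A, ADCYAP1) or with TPM (GAL, PENK, VIPR1). Genes listed at 0 in AS STRAP KO have no log2 ratio without an added value. TPM scaling moved all log2 ratios by 0.11, and with it lower rows made up 48.5% of those beyond 2-fold, and 56.1% as deposited. Of the 10 genes, 6 were counted as at least 2-fold lower (2 of them listed at 0 in AS STRAP KO), but 2 when at least 1 FPKM was required in both libraries. Of the receptors, 2 were lower, but 0 with at least 1 FPKM in both and 6 with no filter, and 1 was higher, but 0 with 1 FPKM added or with at least 1 FPKM in both, 2 with TPM, 4 with a limit of 0.1 FPKM and 5 with no filter. Of the cyclic AMP pathway, 4 were lower, but 2 with at least 1 FPKM in both and 8 with no filter, and 1 was higher, but 3 with a limit of 0.1 FPKM and 5 with no filter. The filters change which genes are counted. Of 176 counts for the other lists, 156 stayed within 1.5 times. No paired analysis was possible because each group has 1 library. With 1 library of 1 clone, the spread between cultures or clones is unknown, and a value under 0.1 FPKM may stand for a single read.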

Other observations

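Receptors of peptides outside the list above were looked up after the other values had been seen. Of 49 such genes, 10 were counted at 1 FPKM or more in at least 1 library, with 3 lower by 2-fold or more in AS STRAP KO, 3 at least 2-fold higher and 4 neither (median log2 ratio -0.28). Over all rows that passed, 10.6% were lower and 8.31% higher by 2-fold or more. Among the 4, MC1R was counted through a row shared with TCF25 and TUBB3, and its own level is not known. The lower ones were QRFPR (15.1 FPKM in AS WT and listed at 0 in AS STRAP KO), NPFFR2, a receptor for neuropeptide FF (23.3 and 11.1 FPKM, log2 ratio -1.08), and PTH2R (1.01 and 0.394 FPKM). The higher ones were NMUR1, a receptor for neuromedin U (0.151 and 1.36 FPKM, log2 ratio 3.17), PTH1R, the receptor for parathyroid hormone-related protein (1.36 and 3.42 FPKM, log2 ratio 1.33), and the row shared by PROKR1 and APLF (0.693 and 2.06 FPKM).

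For 2 ligand and receptor pairs both genes were measured with at least 2-fold differences outside the 10 genes. PTHLH and PTH1R were both higher in AS STRAP KO (log2 ratios 1.25 and 1.33), while NMU was lower (log2 ratio -2.07) and NMUR1 higher (log2 ratio 3.17). These pairs were picked after their values were seen, and no test was made of them.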
